A study of Mus musculus with 18 samples.

Results

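Histone genes that are expressed outside the replication-dependent clusters were examined in murine lung cancer cells treated with a CDK2/9 inhibitor. They were taken by symbol from the gene count table, and all 8 were found among its 55450 genes. The members were *H2afx*, *H2afz*, *H2afv*, *H2afy*, *H2afj*, *H3f3a*, *H3f3b* and *H1f0*.

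Replication-dependent histones are made from clustered genes during S phase, and their mRNAs end in a stem-loop in place of a poly(A) tail. Replication-independent variants are expressed through the cell cycle, generally from spliced and polyadenylated mRNAs, and are exchanged into chromatin by dedicated chaperones. H3.3 is deposited at active genes, regulatory regions and repeats, H2A.Z flanks start sites, H2AX is phosphorylated at DNA breaks, macroH2A marks repressed chromatin, and H1.0 is a linker histone that accumulates in cells that stop dividing.

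ED1SQ4 is a cell line that came from a lung cancer of mice carrying a cyclin E transgene. Cells received vehicle or 0.5 µM CYC065 for 72 hours, and were then profiled unsorted or after sorting on DNA content into a diploid (2N) and a polyploid (4N) population. The 6 conditions were therefore vehicle unsorted, CYC065 unsorted, vehicle 2N, vehicle 4N, CYC065 2N and CYC065 4N, all of the same line. A 4N gate also holds diploid cells that have replicated their DNA but not yet divided, and these cannot be told apart from polyploid cells here.

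Each condition had 3 numbered samples, but over genes with whole-number counts these agreed within sampling noise (chi-square per degree of freedom 0.991 to 1.02), and they were counted as 1 library. Over genes with fractional counts, for which RSEM divides reads between similar genes, the statistic was 4.35 to 7.60. *H2afx*, *H2afz*, *H3f3a* and *H3f3b* belong to that class, and the mean over the 6 conditions was 1.51, 1.56, 0.635 and 0.682 for these genes and 0.482 to 1.28 for the other members, so the counting intervals of *H2afx* and *H2afz* may be too narrow. Intervals below therefore cover counting error only, variation from culture to culture is unknown, and no p-value is given for a difference between conditions. Library totals ran from 54750203 to 62795507 counts. The 8 epithelial and airway markers summed to between 0.436 and 1.3 CPM (counts scaled to library size) in each library, and *Nkx2-1* and *Scgb1a1* were at 0 in all 6. Of 10 markers of stromal, endothelial and immune cells, 5 reached 1 CPM, and the 10 summed to 3555 to 5018 CPM in the vehicle libraries and 4857 to 9566 CPM in the CYC065 libraries, mostly the collagen genes *Col1a1* and *Col3a1*. *Col3a1* read 804.1 CPM in vehicle 2N and 1828 CPM in CYC065 2N, *Pdgfrb* 165.6 and 378.4 CPM, and *Cd68* 3.45 and 23.8 CPM. The label of a lung cancer line was thus not matched by epithelial marker expression. The part of these markers in the results was not tested. The immune gene *Ptprc* and the endothelial gene *Kdr* were at or near 0, but the endothelial gene *Cdh5* read 0.227 to 1.55 CPM.

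In the mm10 build, *H2afx* lies at chr9:44334694-44336077 and *H1f0* at chr15:79028450-79030504, each as 1 exon on the plus strand. *H2afz* is at chr3:137864487-137866922 (plus strand) and *H2afj* at chr6:136808244-136810074 (plus). *H2afv* is at chr11:6427229-6444443, *H2afy* at chr13:56073619-56136361, *H3f3a* at chr1:180800832-180813943 and *H3f3b* at chr11:116021912-116027962, all on the minus strand. *H3f3a* and *H3f3b* encode the same H3.3 protein from coding sequences that share 313 of 408 bases (76.7%). *H2afz* and *H2afv*, which encode the nearly identical proteins H2A.Z.1 and H2A.Z.2, share 304 of 384 coding bases (79.2%). Of all 50-base stretches in their transcripts, 16.9% of those of *H2afz* and 12.3% of those of *H3f3a* also occurred in other genes, processed pseudogenes among them. Pseudogenes that shared at least 50% of their own stretches numbered 1 for *H2afz* and 5 for *H3f3a*. Their rows added at most 0.167% and 0.388% to the counts. Rows of pseudogenes that shared less were not added. Exons of antisense or other opposite-strand genes overlap *H2afx*, *H2afy*, *H2afj*, *H3f3a* and *H1f0*, and the library kit keeps strand.

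The sequence that separates one member from the rest is the histone 3′ stem-loop. Its letters occurred in 1 of the 8 members, *H2afx*, at bases 547 to 562 of a transcript of 1384 bases, within the 3′ UTR. They occurred in 44 of 69 clustered histone genes and in 48 of 21951 protein-coding genes (0.219%). Only annotated transcripts were searched, and those of some clustered genes, such as *Hist1h2bl* and *Hist1h4k*, are short. A clustered gene without a match may therefore still carry the stem-loop. The pseudogenes *Hist1h2aj* and *Hist1h2al* are among the 69. The *H2afx* stem-loop is shown with the form most common among clustered genes, found in 26 of them. Capitals mark the whole stem-loop.
*H2afx*: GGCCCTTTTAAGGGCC
clustered histone genes: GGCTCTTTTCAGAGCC

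For the partner genes, promoter letters from RefSeq (GRCm38.p6) are shown because the genes of each pair differed in level and in their response below. A window of 250 bases before the start was found for 7 of the 8 members, all but *H2afx*. Motifs were searched on both strands, as CCAAT (the CCAAT box), TATAAA (the TATA box), GGGCGG (the GC box), TGACG (a CRE half-site), TTTGAA (the CHR element) and 2 E2F site forms. They occurred in 33.8%, 12.4%, 32.7%, 17.8%, 16.0% and 1.3% of 32851 windows of this length. No member's window held an E2F form. Capitals mark CCAAT or TATAAA on either strand. Only the last 30 bases before the RefSeq start are printed for the H3.3 genes, on the minus strand, at chr1:180813606-180813635 and chr11:116024505-116024534, because annotated exons of other isoforms lie further upstream.
*H3f3a*: tgtgtgATTGGctggagcgcggcgcggggc
*H3f3b*: ctcTATAAAtatggaggcgtcggggggctt
The whole *H3f3b* window held TATAAA 1 time, CCAAT 4 times, TGACG 2 times and no GC box, with 54.0% G and C. The *H3f3a* window held CCAAT 1 time and the GC box 4 times, neither TATAAA nor TGACG, with 77.2% G and C. The TATA box of *H3f3b* lay 27 to 22 bases before the start, and no other member's window held TATAAA.

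The H2A.Z windows are at chr3:137864237-137864486 (*H2afz*, plus strand) and chr11:6444444-6444693 (*H2afv*, minus strand). Both held CCAAT, 2 times in *H2afz* and 4 times in *H2afv*, and 1 GC box. *H2afv* also held TTTGAA 1 time, 41 to 36 bases before the start, and no other member's window held it. Annotated exon sequence of the antisense gene *Gm43403* lies within the *H2afz* window.
*H2afz*: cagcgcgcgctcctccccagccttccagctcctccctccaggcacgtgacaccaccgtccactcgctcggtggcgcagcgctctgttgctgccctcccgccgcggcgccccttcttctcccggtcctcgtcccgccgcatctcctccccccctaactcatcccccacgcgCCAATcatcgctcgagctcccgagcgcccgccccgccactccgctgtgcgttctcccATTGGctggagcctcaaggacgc
*H2afv*: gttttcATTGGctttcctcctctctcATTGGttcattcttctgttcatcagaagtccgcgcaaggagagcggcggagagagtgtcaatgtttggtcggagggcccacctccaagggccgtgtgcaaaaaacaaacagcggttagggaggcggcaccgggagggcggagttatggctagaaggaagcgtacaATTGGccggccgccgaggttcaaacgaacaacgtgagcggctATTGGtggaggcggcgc
These matches describe the windows and are not evidence of factor binding.

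All 8 members were measured in every condition, and all passed the minimum of 30 summed counts. Levels were scaled by TMM and expressed as CPM. The ranges over the 6 conditions were widest for *H2afx* (4.23-fold from lowest to highest) and *H3f3b* (2.97-fold), followed by *H1f0* (2.49-fold), *H2afv* (2.41-fold) and *H2afz* (2.09-fold). *H3f3a* (1.96-fold), *H2afy* (1.74-fold) and *H2afj* (1.52-fold) varied least. Among the 3 sequenced parts of 1 library, the values of a member spread by at most 14.1% of their mean (*H2afj*).

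The H3.3 genes differed in opposite directions between CYC065 and vehicle. *H3f3b* read 537.0 CPM in vehicle 2N, 616.9 in vehicle 4N and 482.5 in vehicle unsorted cells, and 280.2, 270.0 and 207.7 CPM in the same populations under CYC065. All 3 CYC065 libraries were below all 3 vehicle libraries. *H3f3a* read 215.8, 246.9 and 281.4 CPM under vehicle in 2N, 4N and unsorted cells, and 422.0, 400.0 and 379.5 CPM under CYC065. All 3 CYC065 libraries were above all 3 vehicle libraries. On the log2 scale, the CYC065 to vehicle ratio of *H3f3b* was -0.94 in 2N (95% counting interval -0.97 to -0.91), -1.19 in 4N (-1.22 to -1.17) and -1.22 in unsorted cells (-1.25 to -1.18). That of *H3f3a* was 0.97 in 2N (0.94 to 1.00), 0.70 in 4N (0.67 to 0.73) and 0.43 in unsorted cells (0.40 to 0.46). *H3f3a* in 2N, at 1.96-fold, and *H3f3b* in 2N, at 1.92-fold lower, were just inside 2-fold. With scaling by library size alone *H3f3a* in 2N was past it, at 1.11 on the log2 scale.

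Because these responses oppose each other, the sum of the pair changed less than either gene. Together *H3f3a* and *H3f3b* read 752.8 CPM in vehicle 2N and 702.2 CPM in CYC065 2N, a log2 ratio of -0.10 (-0.12 to -0.08). The ratio of the pair was -0.37 in 4N (-0.38 to -0.35) and -0.38 in unsorted cells (-0.40 to -0.36). The share of the pair's counts that came from *H3f3a* does not depend on scaling between libraries. It was 28.7% (Wilson 95% interval 28.2 to 29.1) in vehicle 2N, 28.6% (28.2 to 29.0) in vehicle 4N and 36.8% (36.4 to 37.3) in vehicle unsorted cells. Under CYC065 it was 60.1% (59.6 to 60.6) in 2N, 59.7% (59.2 to 60.2) in 4N and 64.6% (64.1 to 65.1) in unsorted cells. The gene with the larger share of H3.3 transcripts was thus *H3f3b* in each vehicle library and *H3f3a* in each CYC065 library. The *H3f3a* to *H3f3b* count ratio was 3.75-fold higher under CYC065 in 2N, 3.70-fold in 4N and 3.13-fold in unsorted cells. Divided by exon length (the union of exons), the *H3f3a* share was 25.5% in vehicle 2N and 56.1% in CYC065 2N.

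The 2N and 4N libraries of 1 treatment had nearly the same H3.3 shares. The *H3f3a* to *H3f3b* ratio in 4N was 0.996 times that in 2N under vehicle and 0.984 times that under CYC065, with log2 intervals of -0.05 to 0.03 and -0.06 to 0.02. Both genes were slightly higher in 4N under vehicle (log2 ratios 0.19 and 0.20) and slightly lower under CYC065 (-0.08 and -0.05).

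**Figure D1:**
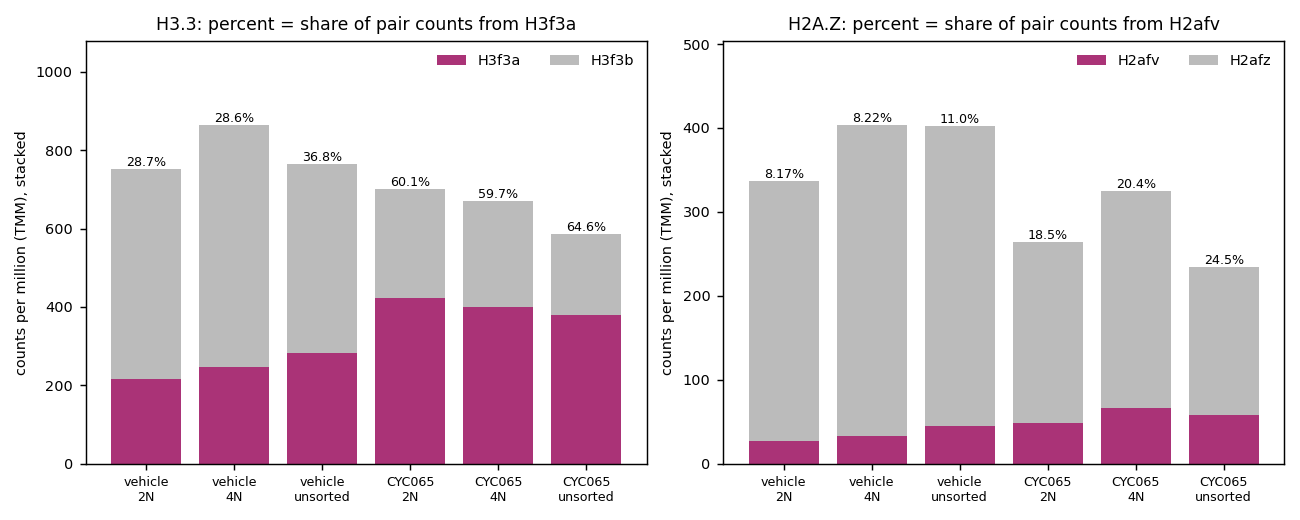
Stacked bars give the CPM (TMM-scaled) of *H3f3a* and *H3f3b* (left) and of *H2afv* and *H2afz* (right) in the 6 libraries, with the percentage of the pair's counts from *H3f3a* or *H2afv* above each bar. The *H3f3a* share ran from 28.6% to 36.8% in the vehicle libraries and from 59.7% to 64.6% in the CYC065 libraries.

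The H2A.Z genes also differed in direction, but *H2afz* stayed the main source of H2A.Z transcripts. *H2afz* read 309.3 CPM in vehicle 2N, 370.0 in vehicle 4N and 358.4 in vehicle unsorted cells, and 215.4, 258.4 and 177.2 CPM in the same populations under CYC065. *H2afv* read 27.5, 33.1 and 44.5 CPM under vehicle and 48.9, 66.3 and 57.6 CPM under CYC065. Neither gene's vehicle range overlapped its CYC065 range. The log2 ratio of *H2afz* was -0.52 in 2N (-0.56 to -0.49), -0.52 in 4N (-0.55 to -0.49) and -1.02 in unsorted cells (-1.05 to -0.98), the last just past 2-fold and within it under 7 alternatives that rescaled, refitted or left out a part of the counts (down to -0.92). That of *H2afv* was 0.83 in 2N (0.74 to 0.92), 1.00 in 4N (0.92 to 1.08, at the 2-fold limit, and 0.97 to 0.99 with DESeq2 size factors, with TMM by sort or without replicate 1) and 0.37 in unsorted cells (0.30 to 0.45).

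*H2afv* supplied 8.17% (7.79 to 8.57) of the pair's counts in vehicle 2N, 8.22% (7.87 to 8.57) in vehicle 4N and 11.0% (10.6 to 11.5) in vehicle unsorted cells. Under CYC065 its share was 18.5% (17.9 to 19.1) in 2N, 20.4% (19.9 to 21.0) in 4N and 24.5% (23.8 to 25.3) in unsorted cells. The *H2afv* to *H2afz* count ratio was 2.55-fold, 2.87-fold and 2.62-fold higher under CYC065 in the 3 populations. The summed pair was lower under CYC065, with log2 ratios of -0.35 in 2N (-0.38 to -0.32), -0.31 in 4N (-0.34 to -0.29) and -0.78 in unsorted cells (-0.81 to -0.75). Under CYC065, the *H2afv* share was higher in 4N than in 2N by more than the counting error, with a ratio 1.13 times as high (log2 0.18, 0.10 to 0.25), while under vehicle it was 1.01 times as high (log2 0.01, -0.09 to 0.11).

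*H2afx*, which encodes the H2A variant phosphorylated at DNA double-strand breaks, had the lowest CYC065 to vehicle ratio of the members in each population. It read 104.5 CPM in vehicle 2N, 92.0 in vehicle 4N and 115.1 in vehicle unsorted cells, and 32.3, 32.6 and 27.2 CPM under CYC065. The lowest vehicle library was above the highest CYC065 library. Under CYC065 it was 3.23-fold lower in 2N (log2 -1.69, -1.77 to -1.62), 2.82-fold lower in 4N (log2 -1.50, -1.57 to -1.42) and 4.23-fold lower in unsorted cells (log2 -2.08, -2.16 to -2.00). Only 3.55%, 4.34% and 2.30% of all genes compared had a lower log2 ratio. Its 4N to 2N log2 ratio was -0.18 (-0.24 to -0.13) under vehicle and 0.01 (-0.08 to 0.10) under CYC065. Of its 50-base stretches, 6.14% also occurred in clustered H2A genes, whose reads the counting could split with it.

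The macroH2A1 gene *H2afy* read 83.6 CPM in vehicle 2N, 79.2 in vehicle 4N and 59.7 in vehicle unsorted cells, and 48.1, 55.5 and 52.0 CPM under CYC065. Its log2 ratio was -0.80 in 2N (-0.86 to -0.73), -0.51 in 4N (-0.58 to -0.45) and -0.20 in unsorted cells (-0.27 to -0.13). *H2afj*, which encodes H2A.J, a variant reported to accumulate in senescent cells, read 16.0, 14.2 and 17.0 CPM under vehicle and 14.6, 11.2 and 12.6 CPM under CYC065. The groups overlapped. Its log2 ratio was -0.13 in 2N (-0.27 to 0.00), -0.34 in 4N (-0.49 to -0.20) and -0.44 in unsorted cells (-0.58 to -0.29).

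*H1f0*, the gene of the linker histone H1.0, differed between populations as well as treatments. It read 133.5 CPM in vehicle 2N, 201.9 in vehicle 4N and 332.2 in vehicle unsorted cells, and 228.5, 252.9 and 331.1 CPM under CYC065. Unsorted cells were the highest under both treatments. The CYC065 to vehicle log2 ratio was 0.78 in 2N (0.73 to 0.82), 0.32 in 4N (0.29 to 0.36) and -0.01 in unsorted cells (-0.03 to 0.02). Its 4N to 2N ratio, 1.51-fold under vehicle (log2 0.60, 0.56 to 0.64), was the largest of the members, against 1.11-fold under CYC065 (log2 0.15, 0.11 to 0.18). The vehicle unsorted library exceeded both sorted vehicle libraries by over 1.5-fold for *H1f0* only among the members. Of 13812 genes, 18.9% lay outside both sorted vehicle libraries by that margin, in either direction. Stain, sorting time and population makeup cannot be told apart in that difference.

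**Figure D2:**
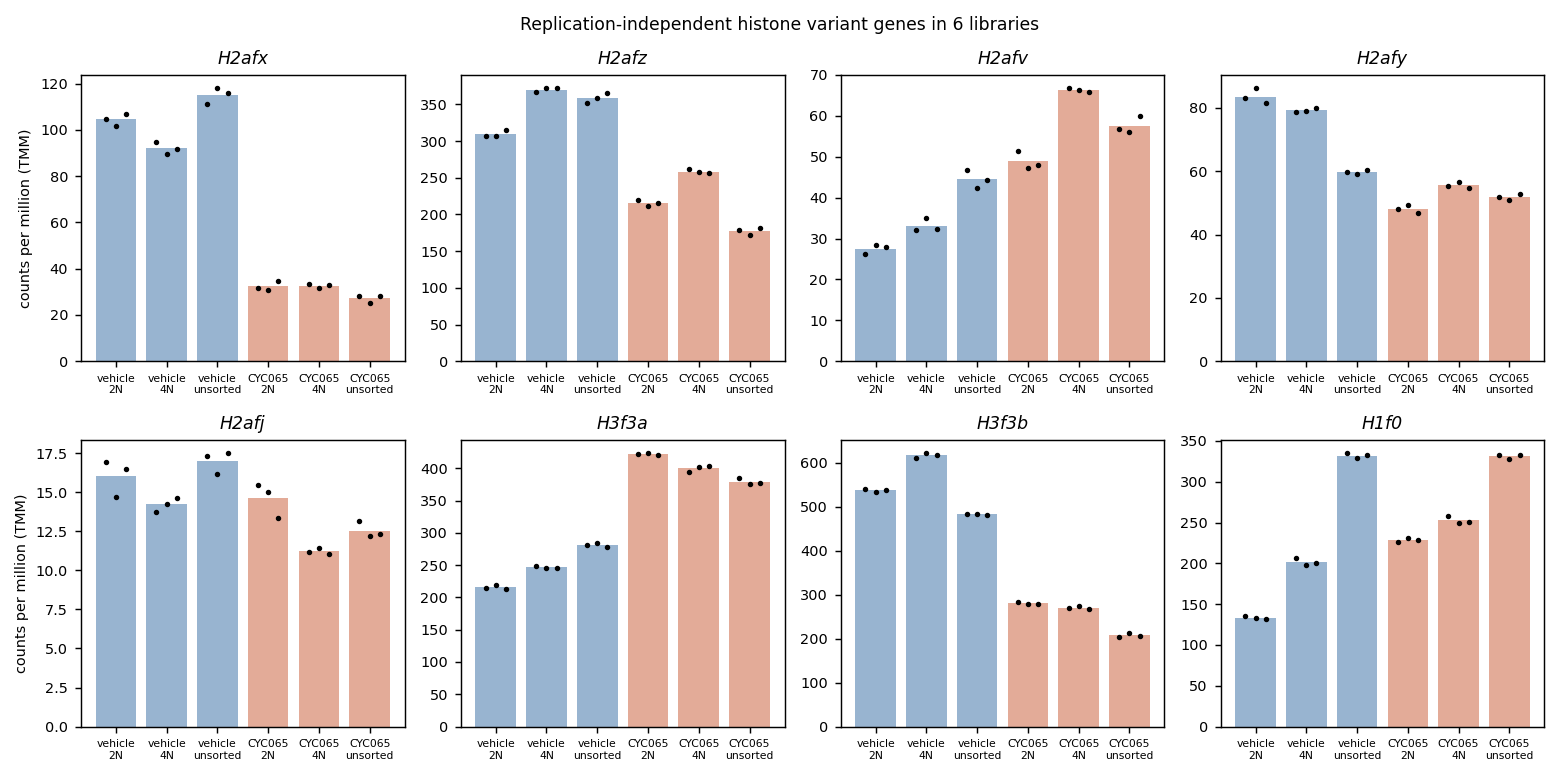
Bars give the CPM (TMM-scaled, linear axis from 0) of each member in the 6 libraries, and points the 3 sequenced parts of each library. Vehicle and CYC065 bars did not overlap for *H2afx*, *H2afz*, *H2afv*, *H2afy*, *H3f3a* and *H3f3b*, and overlapped for *H2afj* and *H1f0*.

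Across the 3 vehicle and 3 CYC065 libraries, 2 members were higher without overlap and 4 were lower without overlap. Among all 14762 genes, 26.8% were higher and 32.0% lower without overlap, so non-overlap was common in this table. In 2N cells, 1 of 8 members was past 2-fold lower (*H2afx*) and 0 past 2-fold higher, against 13.3% and 14.9% of 14090 genes. In 4N cells, 2 were lower (*H2afx* and *H3f3b*) and 1 higher (*H2afv*, a call lost under the 3 alternatives named above), against 11.4% and 14.1% of 14183 genes. In unsorted cells, 3 were lower (*H2afx*, *H3f3b* and *H2afz*, the last a call lost under 7 alternatives) and 0 higher, against 13.9% and 11.7% of 14082 genes. The member median was -0.33, -0.43 and -0.32 on the log2 scale, and the median of all genes -0.07, -0.03 and -0.07. With 8 members, these shares describe the genes and do not set them apart from the table.

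No member was past 2-fold between 4N and 2N cells. Under vehicle, 1.02% of 13365 genes were higher and 1.67% lower, and under CYC065, 1.57% of 14180 genes were higher and 1.99% lower. The members' log2 ratios ran from -0.18 (*H2afx*) to 0.60 (*H1f0*) under vehicle and from -0.38 (*H2afj*) to 0.44 (*H2afv*) under CYC065. In the difference of these ratios between CYC065 and vehicle, no member was past 2-fold, against 3.61% of 14482 genes higher and 3.51% lower, and the values ran from -0.45 (*H1f0*) to 0.28 (*H2afy*).

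**Figure D3:**
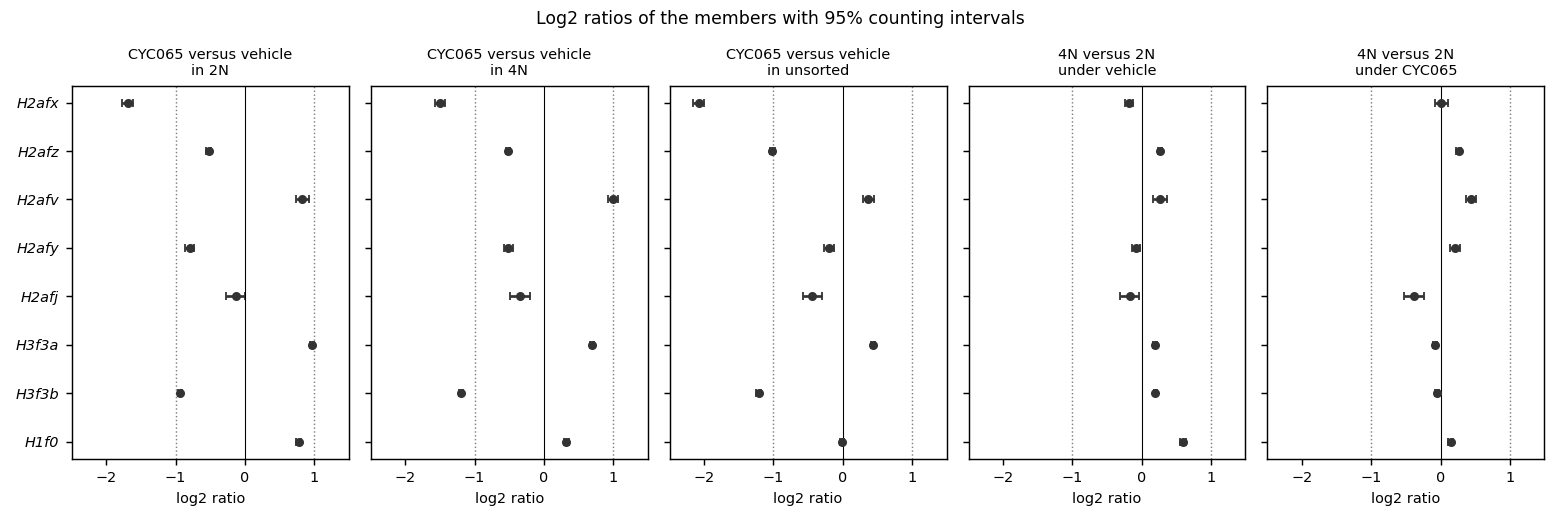
Points give each member's log2 ratio and bars its 95% counting interval, in 5 comparisons of 2 libraries, with dotted lines at 2-fold. The values ran from -2.08 (*H2afx*, CYC065 versus vehicle, unsorted) to 1.00 (*H2afv*, CYC065 versus vehicle, 4N), and the 4N to 2N values lay between -0.38 and 0.60.

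The order of the members by level can be read only per length. Divided by the union of exons, the highest members in vehicle 2N were *H3f3b* (180.4 CPM per kb) and *H2afz* (174.2), followed by *H2afx* (75.5), *H1f0* (65.0), *H3f3a* (61.6), *H2afv* (16.9), *H2afy* (12.3) and *H2afj* (8.76). In CYC065 2N, *H2afz* (121.3 CPM per kb), *H3f3a* (120.4) and *H1f0* (111.2) were above *H3f3b* (94.2), and *H2afx* (23.4) was below *H2afv* (29.9). *H2afz* and *H3f3a* there, *H2afz* (208.4) and *H3f3b* (207.3) in vehicle 4N, and *H3f3b* (162.1) and *H1f0* (161.7) in vehicle unsorted cells differed by less than their counting error and had no firm order. Divided by the longest transcript, *H2afz* was first in all 6 libraries, at 289.4 CPM per kb in vehicle 2N and 201.5 in CYC065 2N.

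Most clustered histone genes had ratios below 0 under CYC065. These were 59 of 62 measured in 2N, 58 of 63 in 4N and 62 of 64 in unsorted cells. Over all genes compared, 46.6%, 48.3% and 46.2% were above 0 in these populations. Of 69 clustered genes, 62 were measured in the 2N comparison of CYC065 with vehicle, and 50 were past 2-fold lower and 1 higher, with a median log2 ratio of -1.40. Clustered genes of a family are near copies, so values of single genes are uncertain. In 4N cells 19 of 63 were lower and 2 higher (median -0.73), and in unsorted cells 61 of 64 were lower and 1 higher (median -2.49), against the 13.3%, 11.4% and 13.9% of all genes given above. *Hist2h2be*, named after its values were seen, was higher in each population (2.38, 1.45 and 0.80). Their summed level was 7930 CPM in vehicle unsorted and 1498 CPM in CYC065 unsorted cells, 2263 and 787.9 CPM in 2N, and 1262 and 655.5 CPM in 4N cells. The 8 members summed to 1691 and 1245 CPM in unsorted cells, 1427 and 1290 CPM in 2N, and 1654 and 1347 CPM in 4N cells. Per kb of exon, the ratio of the summed members to the summed clustered genes ran from 0.0597 in vehicle unsorted cells to 0.552 in CYC065 4N cells. Between 4N and 2N vehicle cells, 29 of 62 clustered genes were past 2-fold lower (median -0.97), against 1.67% of all genes, while *H2afx* read -0.18. Under CYC065, 0 of 63 clustered genes were lower and 1 higher in 4N (median -0.29), and *H2afx* read 0.01.

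**Figure D4:**
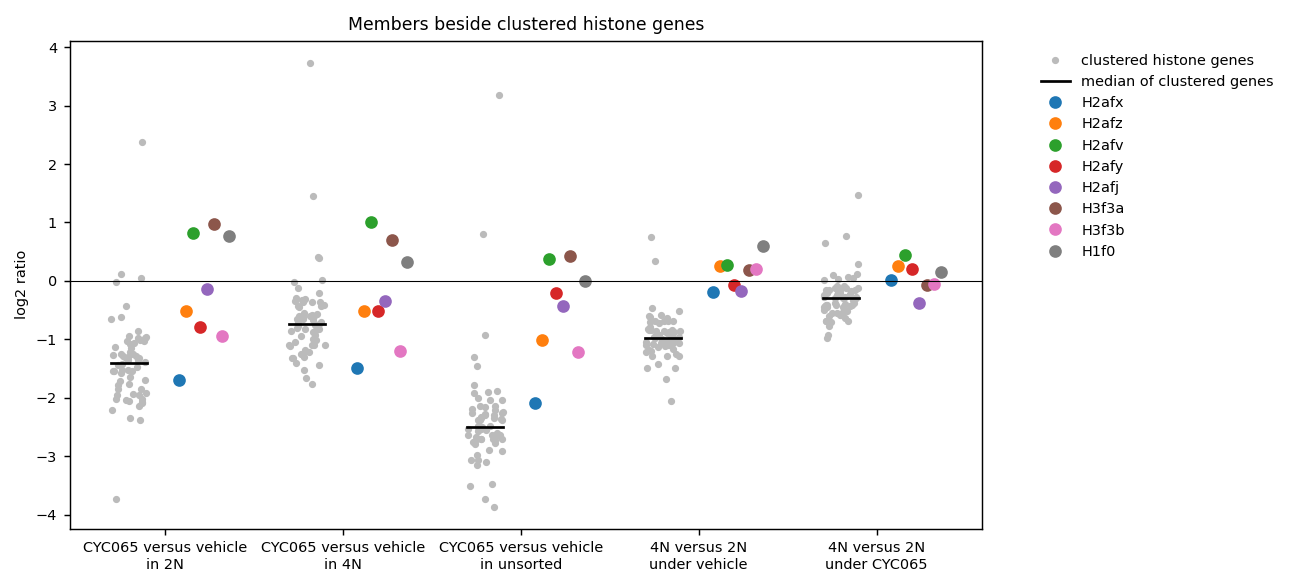
Grey points give the log2 ratio of each clustered histone gene, black bars their median and coloured points the 8 members, in 5 comparisons. In unsorted cells the clustered median was -2.49, and the members ran from -2.08 (*H2afx*) to 0.43 (*H3f3a*).

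Of the other variant genes, 2 were expressed. *Cenpa*, the centromeric H3 variant, read 68.4 CPM in vehicle 2N and 124.9 in vehicle 4N cells, and 34.3 and 78.9 CPM under CYC065, with 4N to 2N log2 ratios of 0.87 and 1.20. *H1fx*, a linker histone gene, read 26.2 CPM in vehicle unsorted cells and between 8.85 and 16.3 CPM in the other 5 libraries. The other 12 of 14 variant genes listed, most of them of the germline, did not reach 30 summed counts.

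H3.3 is placed by HIRA and its partners UBN1, UBN2, CABIN1 and ASF1A, or by DAXX with ATRX, and DEK binds H3.3. Of the 8 genes, 1 was past 2-fold lower in 2N (*Dek*, log2 -1.08), 0 in 4N and 1 in unsorted cells (*Dek*, -1.30), and none was higher. The lower counts are near the 13.3%, 11.4% and 13.9% of all genes lower in these populations. Of all genes, 14.9%, 14.1% and 11.7% were higher. *Ubn2* read 0.56, 0.83 and 0.26 in 2N, 4N and unsorted cells, *Ubn1* 0.27, 0.60 and 0.21, and *Hira* -0.56, -0.27 and -0.37. The median of the 8 was 0.05, 0.15 and -0.02.

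Among 20 genes of the SRCAP, TIP60 and INO80 complexes and of the chaperone ANP32E, which exchange or remove H2A.Z, 3 were past 2-fold lower in 2N, 3 in 4N and 5 in unsorted cells, and none was higher. The 2N and 4N counts are close to the 13.3% and 11.4% of all genes that were lower, and in unsorted cells 13.9% of all genes were lower. Past 2-fold higher were 14.9%, 14.1% and 11.7% of all genes in 2N, 4N and unsorted cells. The removal chaperone gene *Anp32e* read -1.09, -1.02 and -1.20, the acetyltransferase gene *Kat5* -1.29, -1.19 and -1.27, and *Actl6a* -1.05, -1.07 and -1.22. Among the kinases, readers and phosphatases around H2AX, 6 of 15 genes measured were lower in 2N, 4 of 16 in 4N and 7 of 15 in unsorted cells, with 0, 1 and 0 higher, against 13.3%, 11.4% and 13.9% of all genes lower. *Atm*, which encodes a kinase of H2AX, read -2.19, -1.73 and -2.01, and *Mdc1*, whose product binds the phosphorylated form, -1.95, -1.59 and -1.85.

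Cell cycle genes also differed between the treatments. Of 12 genes of S phase, 11 were past 2-fold lower under CYC065 in 2N, 10 in 4N and 12 in unsorted cells (medians -1.57, -1.28 and -1.87). Of 5 proliferation genes, 5, 3 and 5 were lower. Over all genes, 13.3%, 11.4% and 13.9% were lower. Of 6 CDK inhibitor genes measured, 3, 2 and 1 were past 2-fold higher and 0, 0 and 1 lower (medians 0.38, 0.39 and -0.02). Over all genes, 14.9%, 14.1% and 11.7% were higher. *Cdkn1b*, encoding p27, read 1.60, 1.40 and 0.87, and *Cdkn1a*, encoding p21, -0.36, -0.64 and -1.23. Of 12 genes for histone chaperones and histone mRNA processing, 4, 2 and 6 were lower and 1, 1 and 0 higher, against 13.3%, 11.4% and 13.9% of all genes lower and 14.9%, 14.1% and 11.7% higher. The part of cell cycle state in the members' values was not tested.

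The genes most like the pair of members with the widest ranges were sought among 10816 genes with at least 100 counts in each library, by Pearson's r of log2 CPM over the 6 conditions. For *H2afx* they were *D030028A08Rik* (r = 0.999), *Naa38* (0.999) and *Peg12* (0.999), and for *H3f3b* *Nxt1* (0.999), *Map6* (0.999) and *Cycs* (0.999). These points share depth, scaling and the contrast between treatments, and r exceeded 0.9 for 2233 genes with *H2afx* and for 2875 with *H3f3b*.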

How the data were processed

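RNA-Seq was performed on rRNA-depleted, stranded total RNA of ED1SQ4 cells. Per the labels, the authors' processing used bcl2fastq 2.17, cutadapt 1.18, STAR 2.7.0f and RSEM 1.3.1 on mm10. The paper's methods give other versions of bcl2fastq and RSEM. The deposited values are RSEM expected counts, which share reads between similar genes as estimates, without normalization. They were rounded to whole numbers after the 3 columns of a condition were summed.

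Libraries were scaled by TMM over the 6 conditions. Genes with at least 30 summed counts in a library compared were used. Log2 ratios had a prior count of 0.5 and exact 95% counting intervals, and a gene was called past 2-fold. Because 1 library represents each condition, no P value is given for a difference between conditions. Adjusted P values were computed only in the alternative fits to the columns with edgeR and DESeq2. Calls in those fits also required an adjusted P value below 0.05. The fits treated parts of 1 library as replicates, so their P values cover sampling noise only. Pair shares had Wilson intervals. Column totals were 18246493 to 20933929. Same-numbered columns of different conditions correlated between -0.38 and 0.51 in their deviations, and other-numbered columns between -0.38 and 0.37. The numbers were not used as pairs in the main results. Lengths, overlaps and positions came from GENCODE. The intervals and calls were tested on simulated counts that held sampling noise only. That test does not cover reads divided between similar genes or variation from culture to culture.

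All 8 members are named, and from each list at most 4 genes with the largest ratio and at least 100 counts. Members and lists were chosen with earlier results of these data known. Calculations used R 4.3.3, edgeR 4.0.16, DESeq2 1.42.0, Python 3.11.15 and pandas 2.3.3. Alternatives were other scalings, filters, priors and thresholds, fits to the columns with edgeR and DESeq2, and leaving out columns.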

Additional observations from a re-analysis of the deposited data

Results flagged for a closer look

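The 4N to 2N log2 ratio went opposite ways under vehicle and CYC065 for 3 members, with each counting interval away from 0. *H3f3a* read 0.19 under vehicle and -0.08 under CYC065, *H3f3b* 0.20 and -0.05, and *H2afy* -0.08 and 0.21. How many of all genes did so was not counted, so these 3 do not set the members apart from the table. The intervals cover counting error only, and with 1 library per condition the difference was not tested.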

How the results depend on the processing

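Counts of members past 2-fold under CYC065 in 2N were 1 as reported, and 2 with library size scaling, with median centring and with edgeR (with or without the replicate block) or DESeq2 on the columns, *H3f3a* being the addition, and 6 at 1.5-fold. In 4N the count was 3 as reported and 2, without *H2afv*, with DESeq2 size factors, TMM by sort, the interval wholly beyond 2-fold and without replicate 1. In unsorted cells it was 3 and became 2, without *H2afz*, with DESeq2 size factors, TMM by sort, median centring, edgeR (with or without the block) or DESeq2 on the columns, the interval wholly beyond 2-fold and without replicate 2. The 1.5-fold threshold gave 1 member between 4N and 2N under vehicle.

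For all genes, in the order 2N, 4N and unsorted CYC065 comparisons, counts were 3962, 3625 and 3606 as reported, 11664, 10875 and 10335 without a filter, and 7109, 6788 and 6654 at 1.5-fold. For 4N versus 2N under vehicle, under CYC065 and their difference they were 359, 505 and 1032 as reported, 5456, 7194 and 9578 without a filter, 120, 215 and 309 with at least 100 counts, 1226, 1376 and 2350 at 1.5-fold, and 70, 162 and 101 with the interval wholly beyond 2-fold. The difference gave 542 with edgeR on the columns, 531 with the replicate block and 342 with DESeq2. Wherever edgeR or DESeq2 was fitted to the columns, a call also required an adjusted p-value below 0.05. Those fits treated parts of the same library as replicates. Their p-values therefore measure sampling noise and not variation between cultures. The cause of these changes in count was not tested, beyond the number of genes that each filter, threshold and p-value requirement admits.

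Library size scaling moved the all-gene median in 2N from -0.07 to 0.07 and in 4N from -0.03 to 0.11, and the share of calls that were higher in 4N from 55.3% to 66.4%. Signs changed under an alternative only for *H2afx* (4N versus 2N under CYC065), *H2afz* (difference), *H2afj* (2N) and *H1f0* (unsorted), all near 0. The largest shift of a member was 0.14 on the log2 scale. Spread between cultures was not measured.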
